A study of Mus musculus with 36 samples.

Results

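A set of 10 genes that mark transmitters other than glutamate and GABA was followed through single neurons of the mouse midbrain. They are Th, Ddc, Slc6a3, Slc6a4, Tph2, Slc18a2, Chat, Slc5a7, Nos1 and Slc6a5, taken by name from a table of 55359 genes, in which all 10 were found. The table names them ENSMUSG00000000214, ENSMUSG00000020182, ENSMUSG00000021609, ENSMUSG00000020838, ENSMUSG00000006764, ENSMUSG00000025094, ENSMUSG00000021919, ENSMUSG00000023945, ENSMUSG00000029361 and ENSMUSG00000039728, in that order. Each of the 36 libraries holds 1 neuron, and each of the 18 clones holds 2 sequenced sister neurons. A clone is the offspring of 1 radial glia progenitor, marked at embryonic day 12 with MADM, in which recombination during a cell division labels the daughter lineages with different fluorescent proteins. All animals carried the MADM cassettes named M11GTTG and a tamoxifen-inducible recombinase, CreER, under the control of either the Fz10 or the Sox2 gene. The Fz10-CreER group had 11 clones (15 cells from sSC and 7 from dSC). The Sox2-CreER group had 7 clones (7 cells from sSC, 5 from dSC and 2 from PAG). The tissue names are read here as superficial superior colliculus, deep superior colliculus and periaqueductal grey, which gives 22 sSC, 12 dSC and 2 PAG cells. Of the clones, 9 had a cell in each of sSC and dSC, 6 had both cells in sSC and 1 had both in dSC. The mice had a mixed C57/Bl6, FVB and CD1 background and experiments ran from E9.5 to P30, and the labels give neither the age nor the animal of a single cell. A neuron is named here by its clone letter and cell number, as in C1.

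Most neurons of the superior colliculus release glutamate, loaded into vesicles by Slc17a6, or GABA, made by Gad1 and Gad2 and loaded by Slc32a1. Monoamine neurons use a shared kit of genes: Th starts the synthesis of dopamine and noradrenaline, Tph2 starts that of serotonin in neurons, and Ddc completes both dopamine and serotonin. Slc18a2 (VMAT2) packs all of these amines into vesicles, while Slc6a3 and Slc6a4 take dopamine and serotonin back up. Cholinergic neurons make acetylcholine with Chat and import choline through Slc5a7, neurons that release glycine recover it through Slc6a5 (GlyT2), and Nos1 makes nitric oxide. The cell bodies best known for dopamine lie in the ventral midbrain and those for serotonin in the raphe nuclei, and nitric oxide synthase is a known marker of some collicular neurons.

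The start regions of the synthesis enzyme Th and of the vesicle transporter Slc18a2 are shown first, because 7 of the 8 neurons with Th also had Slc18a2 and because these were the members whose windows held TGACGTCA, the full cyclic AMP response element. That of Tph2 is shown beside them, since 10 of the 13 neurons with Tph2 had Slc18a2 too. Slc18a2 was itself present in 21 of all 36 neurons, and over them its Spearman rho was 0.29 with Th and 0.33 with Tph2. Each window runs from 100 bases before to 20 bases after the transcription start in RefSeq on GRCm38.p6, read along the gene's own strand. They lie at chr7:142899976-142900095 (minus strand, Th), chr19:59260778-59260897 (plus strand, Slc18a2) and chr10:115185003-115185122 (minus strand, Tph2), and capitals mark the element.
Th: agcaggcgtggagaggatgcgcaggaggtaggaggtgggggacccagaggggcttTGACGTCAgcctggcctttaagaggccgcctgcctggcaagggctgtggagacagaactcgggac
Slc18a2: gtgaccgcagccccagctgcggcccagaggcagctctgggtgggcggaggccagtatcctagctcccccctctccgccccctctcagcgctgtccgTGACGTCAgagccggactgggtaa
Tph2: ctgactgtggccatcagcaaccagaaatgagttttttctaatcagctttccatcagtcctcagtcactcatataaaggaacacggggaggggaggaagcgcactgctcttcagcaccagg
The first base of the element lies 45 bases before the start in Th and 4 bases before it in Slc18a2. The element reads the same on both strands. It was in 2 of the 12 windows of the 10 members and in 439 of the 32851 windows in the table (1.34%), and a match says only that these letters are present.

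The deposited values, by the authors' name an exon plus intron TPM, add up to 2000000 in every cell, so read depth is unknown and no counting interval can be given. A gene counts as detected here at a value of 1 or more. B2 had the fewest detected genes, 2661, and Q1 the most, 16769, around a median of 12058. The neuronal gene Snap25 had values from 299.8 to 4008. Transcripts of other cell types were present in the neuron libraries: all 8 microglial markers were detected, with summed values from 136 to 10878 in sSC cells and from 85.4 to 12731 in dSC cells. All 6 oligodendrocyte markers were detected too, with sums from 916 to 20420 in sSC cells and from 705 to 6640 in dSC cells. The number of members detected in a cell had a Spearman rho of 0.32 with the summed endothelial markers, 0.30 with the astrocyte sum, 0.24 with the oligodendrocyte sum, 0.11 with the red blood cell sum and -0.05 with the microglial sum over the 36 cells, which differ in library quality. The part of such transcripts in the values below was not tested. A member listed at 0 may have been missed in capture, and Gad1, Gad2 and Slc17a6 were themselves below 1 in some cells.

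Every one of the 36 neurons had at least 1 member, and 28 of them had one at 10 or more. Slc18a2 and Nos1 were the most widespread, each in 21 cells, followed by Ddc and Slc6a5 in 15 each, Tph2 in 13, Slc6a3, Slc6a4 and Chat in 9 each, Th in 8 and Slc5a7 in 6. For scale, 40.7% of the 21877 coding genes were detected in at least 21 cells and 61.6% in at least 6, so these counts are common for genes in these libraries. At a value of 10 or more the counts were 16 cells for Slc18a2, 10 for Nos1, 10 for Tph2, 9 for Slc6a5, 8 for Ddc, 6 for Th, 5 for Slc6a4, 4 for Slc6a3, 2 for Slc5a7 and 1 for Chat. Only 3 values reached 100, those of Slc18a2, Th and Tph2 in 1 cell each. Where Slc17a6, Gad1 and Gad2 were detected, their median rank within a cell lay at the percentiles 76.9, 91.0 and 87.8 of all detected genes. The same median was 53.5 for Tph2, 44.8 for Th, 39.1 for Slc18a2 and 36.4 for Ddc. It was 30.5 for Slc6a5, 29.2 for Nos1, 26.7 for Slc6a4, 22.1 for Slc6a3, 16.9 for Slc5a7 and 8.98 for Chat.

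**Figure D1:**
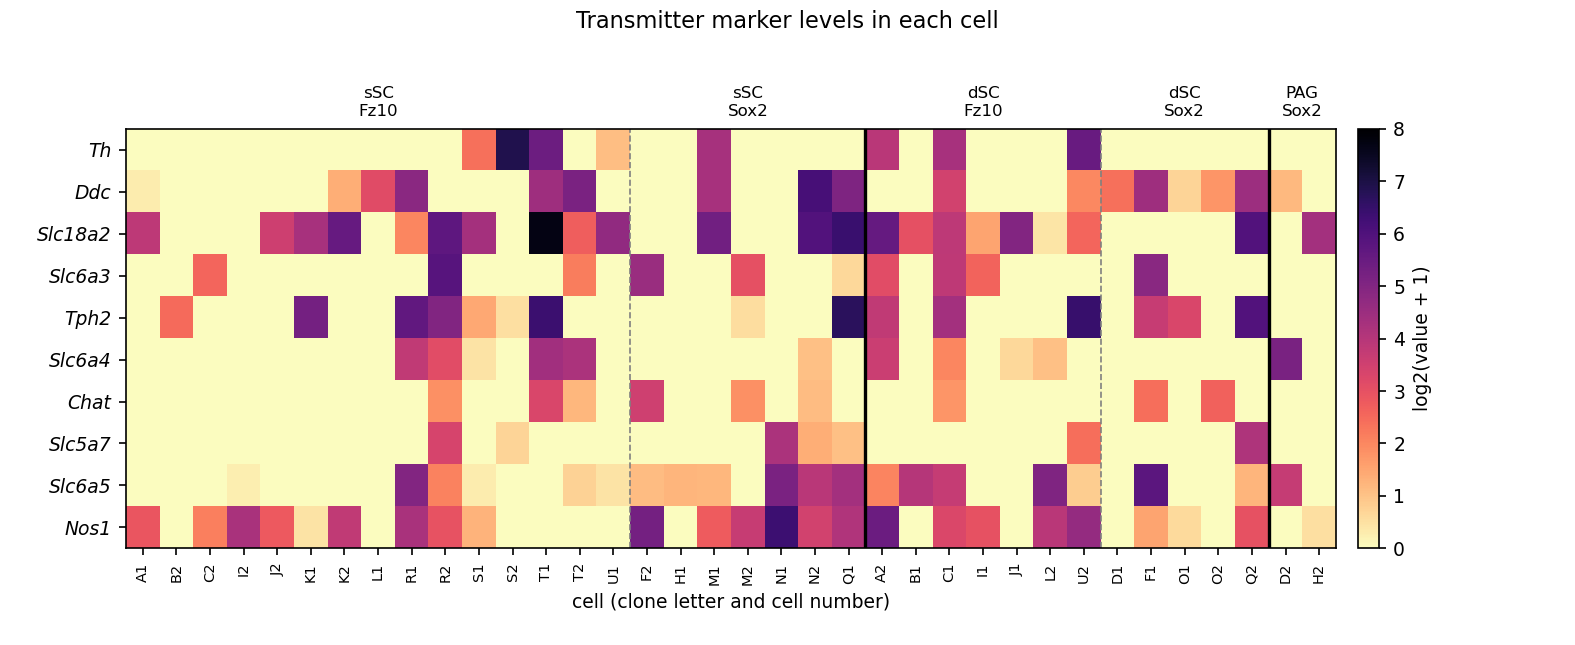
Level of each of the 10 members (rows) in each of the 36 neurons (columns, ordered by tissue and driver), as log2(value + 1) on the colour scale. Filled squares are scattered over all tissue and driver groups, and the darkest, Slc18a2 in T1, stands for a value of 207.

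Th, the first enzyme of the catecholamine pathway, was found in 5 sSC and 3 dSC cells. Its values were 118 in S2, 41.5 in T1, 18.8 in M1, 4.29 in S1 and 1.11 in U1 among sSC cells, and 44.9 in U2, 18.1 in C1 and 14.3 in A2 among dSC cells. S2 held the highest value and had no other member detected, and Ddc and Slc18a2, which dopamine release also needs, were listed at 0 in it. Slc6a3, the dopamine transporter, was present in 9 cells, with 57.3 in R2, 28.3 in F1, 22.3 in F2 and 13.2 in C1 and between 3.55 and 7.63 in the other 5. It met Th in 2 cells, A2 and C1.

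Th, Ddc and Slc18a2 occurred together in C1, M1, T1 and U2, and in M1 and T1 all 3 were at 10 or more. C1, a dSC neuron, was the 1 cell with the whole dopamine set, at 18.1 for Th, 9.89 for Ddc, 13.5 for Slc18a2 and 13.2 for Slc6a3. Of the factors that define midbrain dopamine neurons, Nr4a2 was detected in 15 cells, with a highest value of 86.0 in O1, where Th was listed at 0. Among the 8 cells with Th, it had 57.7 in S2, 28.6 in U2, 19.7 in M1, 17.1 in S1 and 4.42 in C1. Nr4a2 was below 1 in A2 (0.92) and was listed at 0 in T1 and U1. Pitx3 was detected in 2 cells, K2 (7.40) and C1 (3.62), and Foxa2 was listed at 0 everywhere. For noradrenaline, Dbh, which converts dopamine, was detected in 8 cells with a highest value of 168 in I2, a cell where Th was listed at 0. Th and Dbh met in C1 (18.1 and 2.05) and U2 (44.9 and 43.1), while Phox2a, a defining factor of noradrenaline neurons, and Pnmt, which makes adrenaline, were at 0 in all 36 cells.

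Tph2, the first enzyme of neuronal serotonin synthesis, was detected in 7 sSC and 6 dSC cells. Among sSC cells it had 102 in Q1, 82.6 in T1, 49.3 in R1, 37.4 in K1 and 31.4 in R2, with 4.55 in B2 and 1.76 in S1. Among dSC cells it had 87.1 in U2, 60.6 in Q2, 19.6 in C1, 12.9 in A2, 11.7 in F1 and 8.79 in O1. Both tissues thus held cells at 0 and cells above 80. The serotonin transporter Slc6a4 was detected in 9 cells, highest in the PAG cell D2 at 35.2, then 19.8 in T1, 17.3 in T2, 12.98 in R1, 11.1 in A2 and 7.71 in R2, and from 1.04 to 3.04 in 3 more. In D2 Tph2 was listed at 0.

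The full serotonin set of Tph2, Ddc, Slc18a2 and Slc6a4 was present in C1, R1 and T1, and at 10 or more throughout in T1 alone. T1, an sSC neuron, had 82.6 for Tph2, 21.1 for Ddc, 207 for Slc18a2 and 19.8 for Slc6a4, and it also had 41.5 for Th. Fev, the defining transcription factor of serotonin neurons, was detected in 3 cells, at 6.93 in T1, 5.97 in C1 and 1.16 in U2. In R1 it was listed at 0. Lmx1b, another factor of monoamine neurons, was listed at 0 in T1 and had 1.29 in C1 and 0.45 in R1. T1 held the highest values of Gata2 (167) and Gata3 (258), factors used by serotonin neurons of the hindbrain and by GABA neurons of the midbrain. Its Gad1 and Gad2 values were 343 and 243. Th and Tph2, which start different pathways, met in 5 cells, A2, C1, S1, T1 and U2.

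Ddc and Slc18a2, which serve both pathways, were often present without either starting enzyme. Ddc was detected in 8 sSC, 6 dSC and 1 PAG cells, at 70.6 in N2, 34.6 in T2, 32.6 in Q1, 27.3 in R1, 21.6 in Q2, 21.1 in F1, 21.1 in T1 and 18.1 in M1, and from 1.26 to 9.89 in 7 more. In 7 of these 15 cells, among them N2, both Th and Tph2 were below 1. Slc18a2 was detected in 13 sSC, 7 dSC and 1 PAG cells, with 207 in T1, 84.9 in Q1 and a median of 19.5 where detected. Th or Tph2 accompanied it in 12 cells and neither did in 9. Cells with Slc18a2 had a median of 12472 detected genes and cells without it 9511, so its presence went with the number of genes detected (rho 0.55 over 36 cells, the highest of the 10 members).

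The cholinergic genes were the lowest of the set. Chat was detected in 6 sSC and 3 dSC cells and reached 10 only in F2 (10.3), with 8.77 in T1, 5.20 in O2, 4.34 in F1 and from 1.18 to 2.64 in the other 5. Slc5a7, the choline importer, had 17.3 in N1, 16.8 in Q2, 9.29 in R2, 4.31 in U2, 1.58 in N2 and 1.06 in Q1. Both were present in N2 and R2, and Slc18a3, the vesicular acetylcholine transporter, was detected in 3 cells and joined both only in R2 (4.83). Slc18a3 lies within the Chat gene on the same strand, and all 3 cells with it had Chat, so reads of these genes cannot be told apart with certainty in an exon and intron sum. Isl1, a factor of cholinergic neurons, was detected in 3 cells, and Mnx1, a factor of motor neurons, was at 0 in all.

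Slc6a5, the glycine transporter of glycine-releasing neurons, was detected in 8 sSC, 6 dSC and 1 PAG cells. It had 53.8 in F1, 34.3 in N1, 31.7 in L2, 30.5 in R1, 19.4 in Q1, 15.2 in B1, 14.2 in N2, 12.1 in D2 and 11.9 in C1, and from 1.18 to 3.23 in 6 more. High values thus came from sSC, dSC and PAG cells alike. Slc32a1, which loads glycine as well as GABA into vesicles, was detected with it in 10 cells, in 5 of them with both at 10 or more (C1, D2, F1, N1 and R1).

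Nos1, the neuronal nitric oxide synthase, was detected in 14 sSC and 7 dSC cells and was below 1 in both PAG cells. In sSC cells it ran from 0 to 80.5 (N1) with a median of 5.87, and in dSC cells from 0 to 43.1 (A2) with a median of 4.41. It was detected in both sisters of 8 clones, and Slc18a2, detected like it in 21 cells, in both sisters of 7. Nos1 and Slc6a5 met in 12 cells. Gm37028 overlaps Nos1 on the same strand and was detected in 1 cell, which had Nos1. Its value there was 126, above the highest of Nos1. An antisense gene, Gm26995, overlaps Nos1 and was detected in 4 cells, all with Nos1, at 33.1 or less. Another, 1700042O10Rik, overlaps Ddc and was detected in 3 cells, all with Ddc, with a highest value of 75.6 against 70.6 for Ddc. Gm2990, also antisense, overlaps Chat and was detected in 5 cells, 3 of them with Chat, and its highest value, 144, was far above the 10.3 of Chat. The use of strand is not given in the sources used here, so reads of such partners cannot be told apart.

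The 10 members were spread unevenly over the cells, from 1 to 9 per cell with a median of 3. In all, 9 cells had 1 member and 4 cells had 7 or more, namely C1 with 9, R2 with 8, and A2 and N2 with 7 each. C1 was short of Slc5a7 only. Cells with more detected genes had more members (rho 0.65 over 36 cells, which differ in library quality). Among pairs of members, Slc6a3 and Chat had the highest rho (0.55) and met in 6 of the 9 cells that had each. The pathway partners Th and Ddc had a rho of 0.05, Tph2 and Slc6a4 0.20, and Chat and Slc5a7 met in 2 cells.

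**Figure D2:**
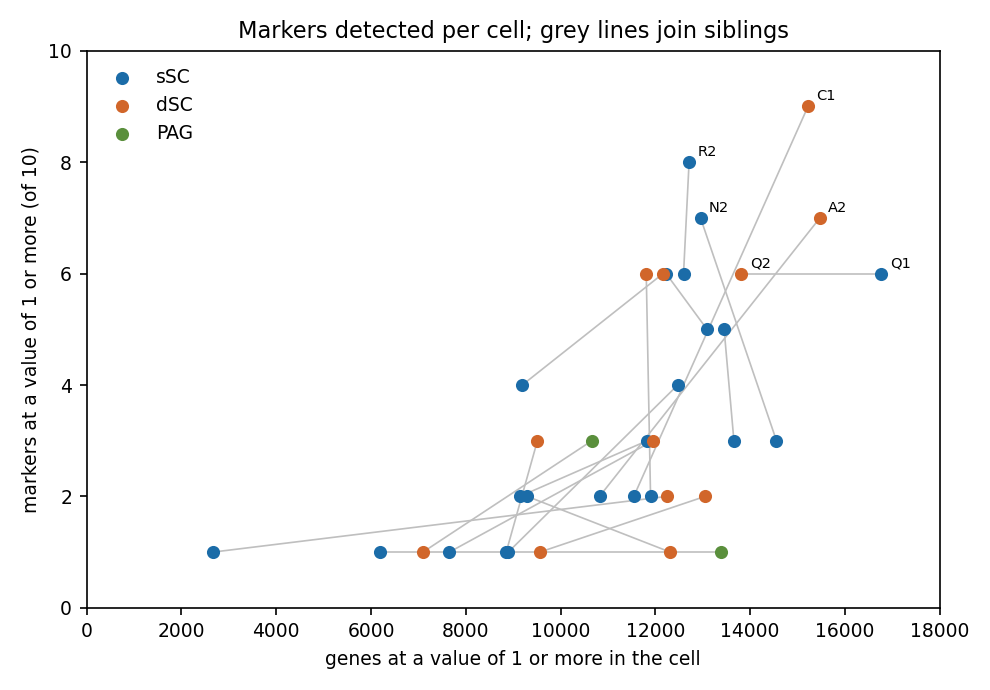
Number of members detected in a cell (vertical axis, of 10) against the number of genes detected in it (horizontal axis), coloured by tissue, with grey lines joining the sisters of a clone. Cells with 7 or more members all lie above the median of 12058 detected genes, and the sisters Q1 and Q2 both have 6.

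In 14 of 18 clones (77.8%) at least 1 member was detected in both sisters, against 70.6% of the 612 pairs of cells from different clones. Sisters shared 1.89 members on average and cells of different clones 1.35. At 10 or more, a member was shared in 8 clones (44.4%), against 35.8% of the pairs from different clones. These shares are a description with no test, since pairs reuse the same cells. Clone Q, an sSC and a dSC neuron with 16769 and 13815 detected genes, shared the most, 6 members. Its values were 102 (Q1) and 60.6 (Q2) for Tph2, 84.9 and 61.1 for Slc18a2, 32.6 and 21.6 for Ddc, and 16.4 and 6.95 for Nos1. R1 and R2 shared 5 members, with 49.3 and 31.4 for Tph2, and clone T shared 4, with 21.1 and 34.6 for Ddc and 19.8 and 17.3 for Slc6a4. F1 and F2, a dSC and an sSC neuron, shared Slc6a3 (28.3 and 22.3), Chat (4.34 and 10.3), Nos1 (1.86 and 37.4) and Slc6a5 (53.8 and 1.18). Other sisters differed widely: C1 had 9 members and C2 had 2, and Th was 118 in S2 against 4.29 in S1.

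Whether clones differed beyond their sisters was asked in the 16 clones without a PAG cell, by limma's moderated F test in a model that also held tissue. No member was called among the 9 tested, in a fit that called 3 of 15132 genes (0.0198%) at an adjusted p under 0.05. Slc6a4 came nearest, with F = 3.92, an unadjusted p of 0.0015 and a limma adjusted p of 0.366. It was the 1 member under an unadjusted p of 0.05, which 7.8% of all genes met. Its sister values were 12.98 and 7.71 in clone R and 19.8 and 17.3 in clone T, but 11.1 and 0 in clone A and 3.04 and 0 in clone C. Sisters share an animal, and several clones may do so, so a difference between clones cannot be told apart from one between animals.

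For tissue, cells of 1 clone and tissue were averaged, which gave 16 sSC and 11 dSC means on the log2(value + 1) scale. No member passed the test between sSC and dSC: limma called 0 of the 7 members that passed the filter (detection in at least 25% of the cells compared) and 0 of 14613 genes (0%). At an unadjusted p under 0.05 there were 0 members and 754 genes (5.16%). The largest differences were in Slc6a5, at -1.02 (SE 0.71, adjusted p 0.971), and Tph2, at -1.01 (SE 0.86, adjusted p 0.971), both lower in sSC. With the clone as a block, so that sisters lying in different tissues carry the comparison, the difference was -1.82 for Slc6a5 (SE 0.87, unadjusted p 0.0507, limma adjusted p 0.555), -1.68 for Tph2 (SE 0.95, unadjusted p 0.095, limma adjusted p 0.604) and -1.04 for Slc18a2 (SE 0.84, unadjusted p 0.234). Without the block, Nos1 differed by -0.04 (SE 0.78), Slc18a2 by -0.02 (SE 0.87), Chat by 0.01 (SE 0.40), Ddc by -0.29 (SE 0.70) and Slc6a3 by -0.48 (SE 0.61). With standard errors of 0.40 to 0.87, differences well above that size can also go uncalled here. Slc29a4, not a member, differed by -2.21 (SE 0.76) in this fit and had a limma adjusted p of 0.933. Th, Slc6a4 and Slc5a7 were below the filter, with 5, 5 and 4 of 22 sSC cells and 3, 3 and 2 of 12 dSC cells positive. The median of all genes was itself -0.31 in this comparison, and quantile normalization moved it to -0.01. That scaling brought Slc6a5 to -0.28 and Tph2 to -0.36 (limma unadjusted p 0.672 and 0.663). It turned the small differences of Slc18a2 and Nos1 to 0.24 and 0.21. With detected genes as a covariate, Slc6a5 was at -0.65 and Tph2 at -0.48. The PAG cells, too few for a test, had Slc6a4 at 35.2, Slc6a5 at 12.1 and Ddc at 1.26 in D2, and Slc18a2 at 19.5 in H2.

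**Figure D3:**
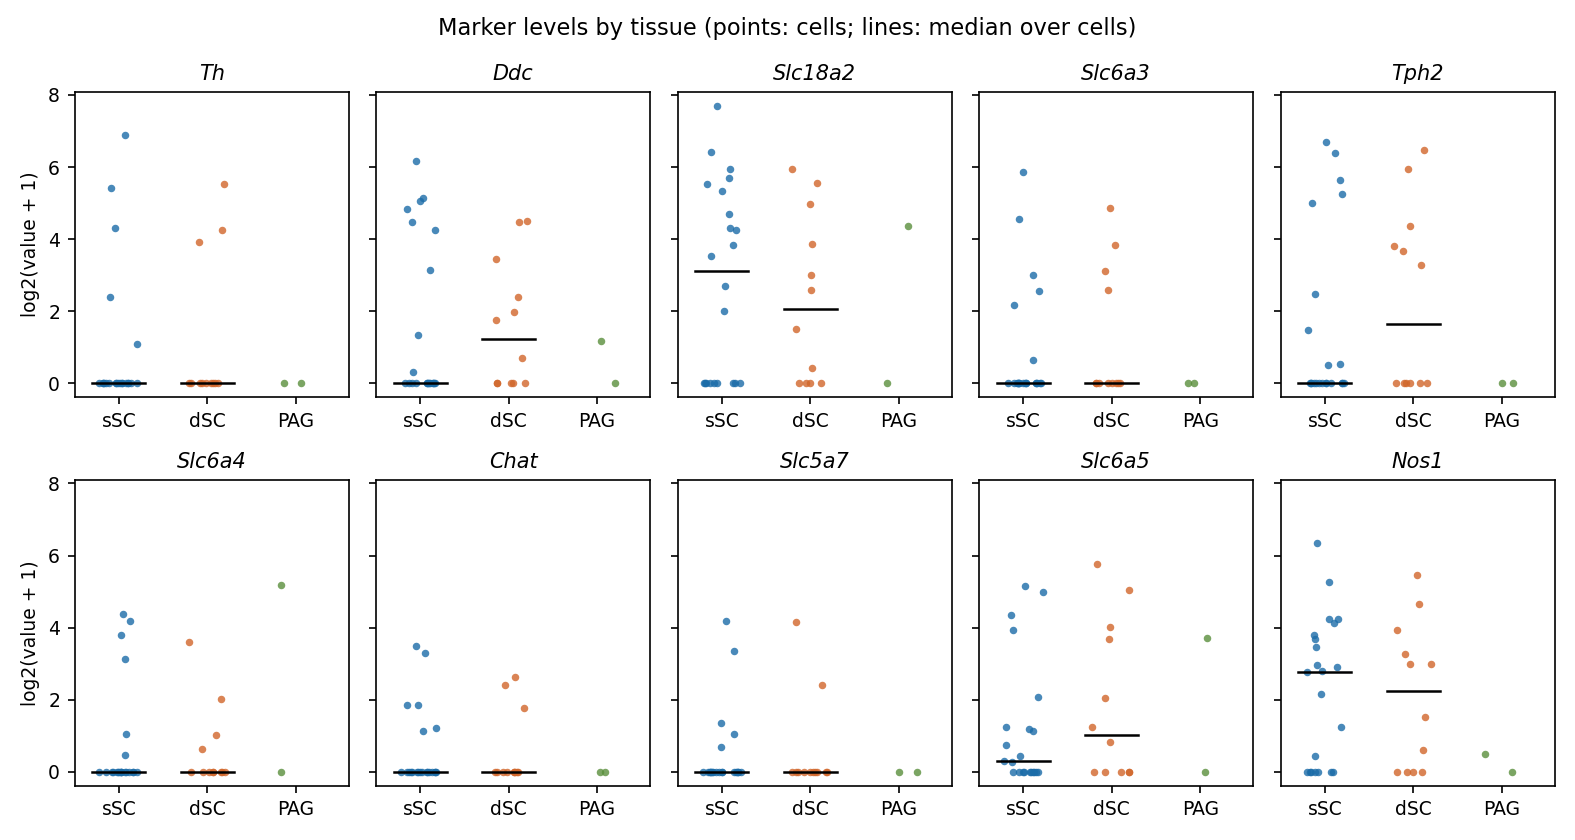
Values of each member as log2(value + 1) in sSC, dSC and PAG cells, with 1 point per cell and a line at the median over cells. In every panel the sSC and dSC points overlap, and the PAG column holds 2 cells.

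The driver groups were compared within each tissue, because the driver belongs to the whole clone. In sSC (11 Fz10-CreER and 5 Sox2-CreER clone means) limma called 0 of the 6 members that passed the filter and 0 of 14320 genes (0%). At an unadjusted p under 0.05 there were 1 member and 587 genes (4.1%). That member was Slc6a5. The 15 Fz10-CreER cells had values between 0 and 30.5 around a median of 0, and 2 of them, R1 and R2, were at 1 or more. In the 7 Sox2-CreER cells it had 34.3, 19.4, 14.2, 1.37, 1.28, 1.18 and 0, with 6 at 1 or more. The clone means overlapped, and the difference was -1.94 (SE 0.74, unadjusted p 0.0137, limma adjusted p 1.00). Without clone N or clone Q it was -1.39 or -1.44, with unadjusted p of 0.0651 and 0.0583. Without clone F, H or M it was -2.25, -2.22 or -2.38, with limma unadjusted p of 0.0078, 0.0087 and 0.0064. Fz10-CreER clones were not left out in this way. Nos1 was next, with medians of 1.38 in Fz10-CreER and 11.9 in Sox2-CreER cells and a difference of -1.83 (SE 1.05, limma adjusted p 1.00), which was -0.90 after quantile normalization and -2.71 (unadjusted p 0.0152) without clone H. The median number of detected genes was 11544 in the Fz10-CreER sSC cells and 13450 in the Sox2-CreER sSC cells, and the median difference over all genes was -0.38. With detected genes as a covariate the difference of Slc6a5 was -1.53.

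In dSC (7 Fz10-CreER and 4 Sox2-CreER clone means) 9 members passed the filter and limma called none of them and 1 of 16310 genes (0.00613%). At an unadjusted p under 0.05 there were 1 member, Ddc, and 785 genes (4.81%). Ddc had 9.89, 2.94 and 5 values of 0 in the 7 Fz10-CreER cells, against 21.6, 21.1, 4.24, 2.39 and 0.64 in the 5 Sox2-CreER cells. The groups overlapped, since C1 and U2 lay within the Sox2-CreER range. The difference was -2.37 (SE 1.13, unadjusted p 0.0492, limma adjusted p 0.903), and without clone F or clone Q it was -1.93 or -1.92, with unadjusted p of 0.109 and 0.107, while without clone O it was -3.01. Slc18a2 differed by 1.64 (SE 1.42, limma adjusted p 0.922), and without clone Q by 3.13 (unadjusted p 0.0316, limma adjusted p 0.684). Th ran the other way, with 44.9, 18.1, 14.3 and 4 values of 0 in Fz10-CreER cells, while it was listed at 0 in all 5 Sox2-CreER cells. Th passed the filter only through its Fz10-CreER cells, so its difference of 1.96 (SE 1.17, limma adjusted p 0.903) is no test of the driver. The size of that difference also depends on the pseudocount. Slc6a4 was likewise listed at 0 in all 5 Sox2-CreER dSC cells and was detected in 3 of 7 Fz10-CreER dSC cells. It passed the filter in the same way, so its fit is no test of the driver either.

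**Figure D4:**
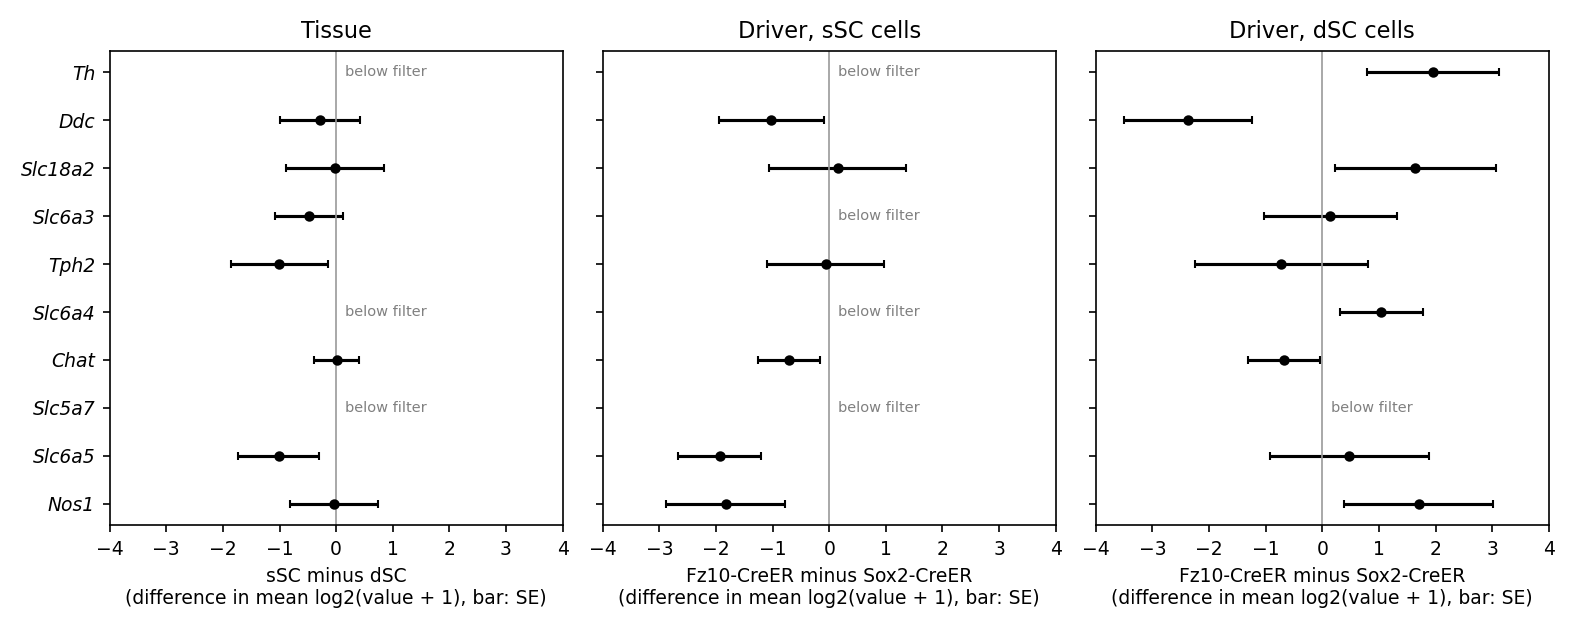
Fitted difference of each member in mean log2(value + 1), with its standard error, for sSC minus dSC and for Fz10-CreER minus Sox2-CreER within sSC and within dSC. No difference passed an adjusted p of 0.05, and members below the filter have no point.

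The driver difference of Nos1 had opposite signs in the tissues, -1.83 in sSC and 1.70 in dSC. Tested as an interaction, the difference between them was -3.53 (SE 1.58, unadjusted p 0.0321, limma adjusted p 0.827), and with the clone as a block it was -3.62 with an unadjusted p of 0.129. After quantile normalization it was -1.99 (unadjusted p 0.148), and the median of all genes in this comparison was -0.80 before it and 0.02 after it. It was the 1 of 7 members tested under an unadjusted p of 0.05, against 845 of 14613 genes (5.78%). No member was called, and 1 gene was (0.00684%). The Nos1 medians were 1.38 in Fz10-CreER and 11.9 in Sox2-CreER sSC cells, and 8.64 in Fz10-CreER and 0.52 in Sox2-CreER dSC cells. Within each tissue the groups overlapped.

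The members were found in glutamate and in GABA neurons. At a value of 100, 11 cells had Slc17a6 alone, 19 had Gad1 or Gad2 alone, 5 had both and 1, C1, had neither, with 88.4 for Slc17a6, 62.3 for Gad1 and 98.7 for Gad2. This grading has no gap at its threshold, since K2 (95.4) and R1 (91.8) lay just under it for Slc17a6 and L2 (105) just over. Slc18a2 was detected in 8 of 11 cells with Slc17a6 alone and 9 of 19 with Gad alone, Nos1 in 6 and 10, Slc6a5 in 4 and 6, Ddc in 4 and 7, and Chat in 2 and 5. Tph2 was in 2 and 8, Th in 1 and 5, Slc6a4 in 3 and 5, Slc6a3 in 1 and 5, and Slc5a7 in 3 and 2. The median number of members per cell was 2 with Slc17a6 alone, 3 with Gad alone and 5 with both.

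Transmitter balance was then used as a continuous measure, namely the log2(value + 1) level averaged over Slc32a1, Gad1 and Gad2, from which that of Slc17a6 was subtracted. The difference in a member between sisters was regressed on their difference in balance over the 18 clones. No member was called among the 8 tested, while limma called 5 of 14902 genes (0.0336%), 2 of which, Slc17a6 and Gad1, define the balance. At an unadjusted p under 0.05 there were 0 members and 606 genes (4.07%). The steepest slopes were -0.16 per unit of balance for Slc18a2 (SE 0.10), 0.14 for Nos1 (SE 0.08) and -0.13 for Ddc (SE 0.09), each with a limma adjusted p of 1.00. Slc6a5 had a slope of 0.05 (SE 0.09) and Tph2 one of 0.09 (SE 0.10).

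**Figure D5:**
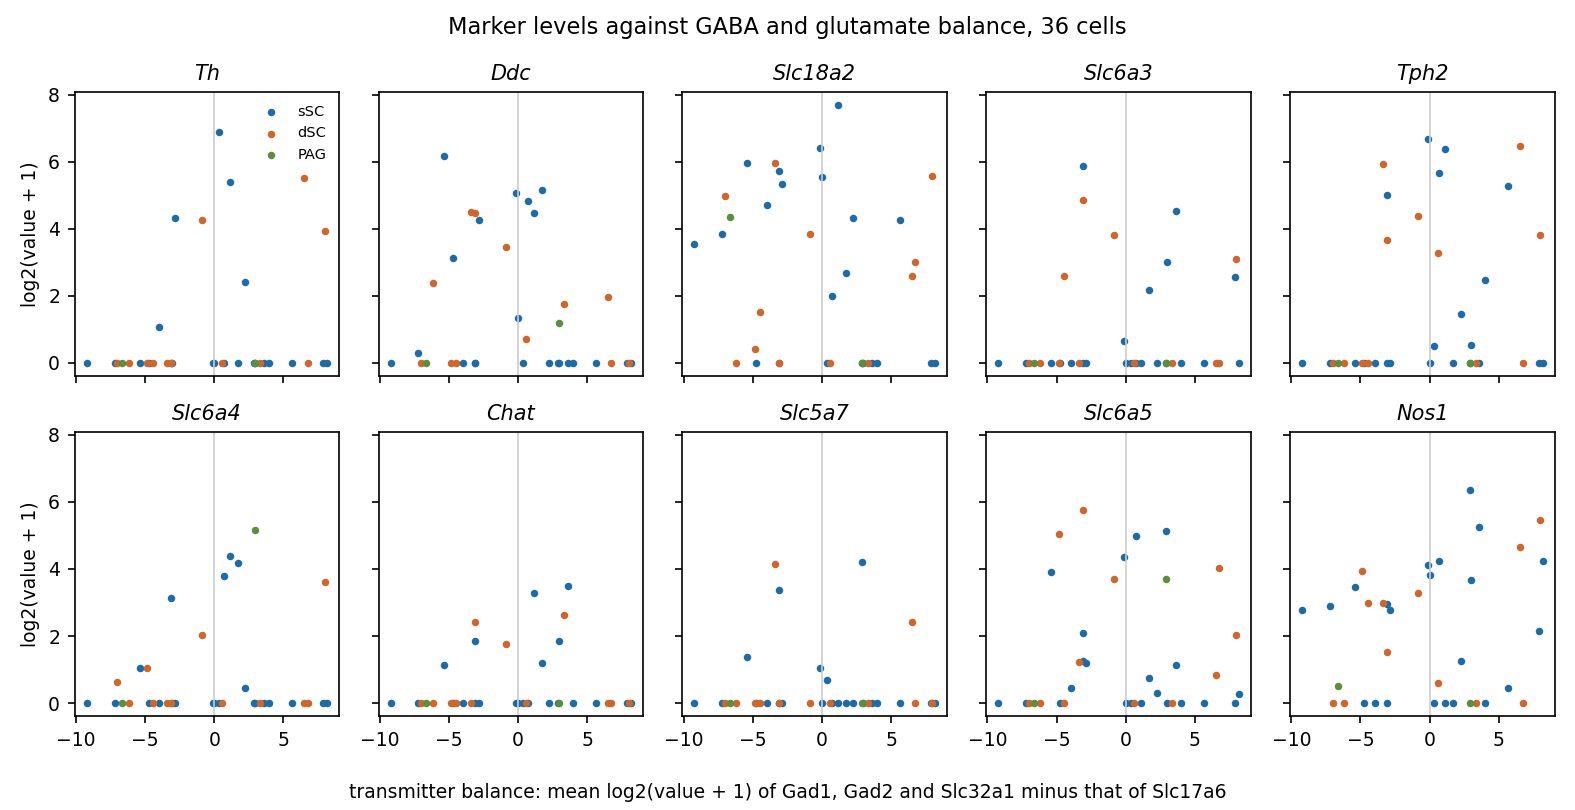
Value of each member as log2(value + 1) against transmitter balance, with 1 point per cell, coloured by tissue, positive balance on the GABA side. Detected values of Slc18a2, Nos1, Ddc and Slc6a5 occur on both sides of 0.

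Other genes of these pathways were read from 7 lists holding 67 genes, and only those that passed the filter were tested. For tissue these ran from 4 of 18 transcription factors to all 7 genes of the tetrahydrobiopterin cofactor. None of the tested genes was called for tissue, driver, interaction, balance or clone, in fits that called 0% to 0.0336% of all genes. Detection of the listed genes ran from 0 cells to all 36. Pnmt was detected in 0 cells, Tph1 and Nos2 in 1 each, and Slc6a2, Slc22a3 and Slc18a3 in 3 each. For scale, 40.7% of coding genes were detected in at least 21 cells. Qdpr, which recycles the cofactor of Th and Tph2, was detected in 35 cells and Gch1, which starts its synthesis, in 15 with a highest value of 30.2. Ache, which degrades acetylcholine, was detected in 32 cells. Gucy1b1, a subunit of the cyclase that nitric oxide activates, was detected in all 36.

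The gene of smallest p in each list, none of which passed, was Akr1b3, Gch1, Slc29a4, Chka, Shmt2, Gucy1a2 or Gata3 for tissue, with limma adjusted p from 0.933 to 0.971. Slc29a4, a transporter of monoamines, had the smallest of these, at -2.21 (SE 0.76). For driver in sSC these genes included Hnmt, Slc44a1, Gcsh, Nostrin and En1, and Hnmt, which breaks down histamine, came first at -4.95 (SE 1.32, limma adjusted p 0.624). For driver in dSC they included Pcbd1, Slc29a4, Chkb, Slc6a9, Nos3 and Nr4a2, and Nos3, the endothelial nitric oxide synthase, came first at -2.54 (SE 0.85, limma adjusted p 0.903). The interaction gave, among others, Gch1, Slc29a4, Chkb, Slc6a9, Nosip and Nr4a2, with Gch1 first at -3.62 (SE 1.21, limma adjusted p 0.792). For balance they were Maoa, Qdpr, Slc18a1, Slc44a1, Slc32a1, Nos1ap and Gata3. Of these Gata3, a factor of midbrain GABA neurons, had a slope of 0.48 (SE 0.10, limma adjusted p 0.0853) and Slc32a1, part of the balance itself, one of 0.35 (SE 0.08, limma adjusted p 0.139). For clone they were Maob, Pcbd1, Hnmt, Slc44a1, Amt, Nostrin and En1, with Amt, of glycine cleavage, first at a limma adjusted p of 0.594. For the 7 members tested for tissue the median difference was -0.29, against -0.31 for all genes, for the 6 tested for driver in sSC it was -0.87, against -0.38, and for the 9 in dSC 0.48, against 0.37.

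Genes whose pattern was most like that of a member were ranked by Spearman rho over the 36 cells among 14869 genes, for the 8 members detected in at least 25% of cells. Such values describe shared detection in libraries of unequal quality. Slc18a2 was followed most closely by Rptor (0.72), Vps33b (0.72) and Gm44799 (0.71), and Slc6a4 by 1700061G19Rik (0.73), Spa17 (0.68) and Tmem255b (0.65). For Nos1 the nearest were Phldb2 (0.70), Tmem63b (0.64) and 1700040D17Rik (0.63), and for Tph2 they were Plekhg1 (0.67), Gm43517 (0.67) and Ezr (0.65). Slc6a5 ran with Tspan13 (0.67), Wwp2 (0.65) and Nck2 (0.64), and Ddc with Gabrd (0.65), Zfp936 (0.63) and Dlx6os1 (0.61). Among the nearest to Chat were Noa1 (0.63) and Sfrp1 (0.59), and Slc6a3 to Gm45904 (0.62), Prrg1 (0.61) and Gm47814 (0.61). None of these was another member, and none was a gene of the pathway lists.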

How the data were processed

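Per the labels' protocols, polyadenylated RNA of each neuron went into a SMART-Seq Single Cell PLUS library (Takara). The submitters' processing notes list the aligner STAR 2.7.9a, R 4.0.3 and the genome GRCm39. What annotation and strand setting served is not given in the sources used here. For each cell the deposited table gives a signal per gene, named by the authors as TPM over exons plus introns, with no formula stated. Each cell sums to 2000000, so it is a normalised signal and not plain TPM as planned, and depth per cell is unknown. Symbols came from GENCODE M21 (52083 of 55359 genes matched). All 36 columns were matched to samples by their names.

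Values were compared as log2(value + 1), a scale that understates the difference of low genes, by limma (version 3.58.1, R 4.3.3) with trended, robust empirical Bayes variances. The fits were tested on simulated data, in which cells were drawn independently and changes were planted only in genes of higher mean level than the members. That test does not speak for genes as low as the members. The fits covered every gene detected, at a value of 1 or more, in 25% or more of the cells compared. Benjamini-Hochberg adjustment ran over all genes, with a threshold of 0.05. In the tissue, driver and interaction fits, clone means per tissue were the replicates, so p-values describe the spread between clones. The 9 clones with a cell in each of sSC and dSC entered the tissue and interaction fits with 1 mean per tissue. Without the block these were treated as independent. The clone test set clones against the spread between sister cells, and the balance fit used differences between sisters. Sisters come from 1 progenitor and so from 1 animal by the design, which pairs the cells of a clone, and fits with the clone as a block were run for tissue and the interaction. Descriptions were computed in Python 3.11.15 (pandas 2.3.3, numpy 2.4.6, scipy 1.17.1). The text names all 10 members, the genes of pathway lists that passed or else the 1 of smallest p per list, and the 3 genes of highest rho with each member detected in at least 25% of cells. Some genes that this rule names are not reported here. The members and lists were chosen with earlier results of these data known. Alternatives changed the pseudocount, the filter, the scaling, the variance model, the clones and cells included, the block and a covariate for detected genes. Start regions are from RefSeq on GRCm38.p6, a build other than the one used for the values.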

Additional observations from a re-analysis of the deposited data

Results flagged for a closer look

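Of 28 groups of 4 to 7 clone means of a member, 9 had a highest clone far apart from the next by Dixon's ratio. Most of these groups hold values of 0 in nearly all clones, so that a single detection sets the flag. The ratio's usual rate of about 1 in 20 is for normally distributed values, so it cannot be set against this count. Values are means of log2(value + 1) per clone. Among Sox2-CreER sSC clones, Tph2 was 6.69 in clone Q against 0.27 in the next, Chat was 3.50 in clone F against 0.93, Th was 2.15 in clone M against 0, and Slc6a4 was 0.53 in clone N against 0. Among Sox2-CreER dSC clones, Slc18a2 was 5.96 and Slc5a7 4.15 in clone Q and Slc6a3 was 4.87 in clone F, each against 0 in the next. Among Fz10-CreER dSC clones, Chat was 1.77 in clone C and Slc5a7 was 2.41 in clone U, each against 0. Clone Q thus stood apart for 3 members and clone F for 2. Q1 and Q2 had 16769 and 13815 detected genes and F1 and F2 had 12161 and 9192, against a median of 12058. The number of members in a cell rose with detected genes (rho 0.65 over 36 cells), and its part in these flags was not tested.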

How the results depend on the processing

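No member was called in any comparison under any alternative run, and the smallest limma adjusted p of a member was 0.239, for the clone effect of Slc6a4 with a pseudocount of 10. Of 399 member results, 362 kept their direction and side of the threshold and 37 changed sign, none of them called; the cause was not tested. For tissue, Slc18a2 came to 0.11 (pseudocount 10), 0.24 (quantile normalization), 0.15 (without B2) and 0.82 (detected genes as a covariate), but to -1.04 with the clone as a block. Nos1 came to 0.21 (quantile), 0.11 (without B2) and 0.38 (covariate), but to -0.38 with the block, Ddc to 0.022 (pseudocount 10) and 0.15 (covariate), and Chat to -0.028 (pseudocount 0.1) and -0.076 (clone as a block). For driver in sSC, Tph2 came to 0.17 (pseudocount 0.1), 0.28 (quantile) and 0.46 (covariate), and Slc18a2 to -0.17 (pseudocount 10). Leaving out each Sox2-CreER clone moved Slc18a2 between -0.45 (without F or H) and 1.15 (without Q) and Tph2 between -0.41 and 1.26 (without Q). For driver in dSC, Slc6a3 came to -0.11 (pseudocount 10), -0.45 (quantile), -0.26 (without the clone of fewest genes, D) and -0.53 (covariate), and Slc6a5 to -0.11 without clone D. Leaving out each Sox2-CreER clone there moved Slc6a3 between -0.26 and 1.36 (without F), Slc6a5 between -0.11 and 1.82 (without F), Tph2 between -1.66 and 0.32 (without Q) and Slc18a2 between 1.15 and 3.13 (without Q). For the interaction, quantile normalization gave 0.14 for Slc6a3 and 0.44 for Chat, and the clone block gave -0.28 for Tph2. For balance, Slc6a3 came to 0.018 (pseudocount 0.1) and 0.037 (36 cells with no replicate block), and Chat to 0.0038 (pseudocount 10), 0.00097 (quantile) and 0.017 (no replicate block).

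Counts of genes called over the whole table moved as follows. For tissue, 1 gene was called with a pseudocount of 10, with quantile normalization and with the clone block, against 0. For driver in sSC, 1 was called with a pseudocount of 10, against 0, and leaving out a clone gave 0 to 5 (1 without F, 5 without H). For driver in dSC, 0 were called without trend and robust variance or without clone D, against 1, and leaving out a clone gave 0 to 2 (0 without D or F, 2 without Q). For the interaction, 0 were called with a pseudocount of 10, no filter, quantile normalization, neither trend nor robust variance, without B2, or with the clone block, against 1. For balance, 1 was called with a pseudocount of 0.1, 2 without a filter, 15 with a pseudocount of 10, 13 with quantile normalization or the covariate, and 16 with no replicate block, against 5. For clone, 6 were called with a pseudocount of 0.1, 60 without a filter and 1 without trend and robust variance, against 3. At a value of 10, 71 detections of members were counted, and at 100, 3 in 3 cells, against 126 in 36 cells at 1.

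Quantile normalization moved the median difference of all genes from -0.31 to -0.01 for tissue, from -0.38 to 0.01 for driver in sSC, from 0.37 to 0.02 for driver in dSC and from -0.80 to 0.02 for the interaction. Values of 0 cannot be separated into absence and missed capture without depth.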
